A study of Mus musculus with 16 samples.

Results

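Medullary thymic epithelial cells (mTEC) were compared with dendritic cells of the thymus (tDC) on 4 of the 16 arrays of a mouse thymus series, 2 arrays titled WT-mTEC against 2 titled WT-tDC. The members of the comparison were the arrays with these titles, and no measured value entered their choice. Both populations were FACS-sorted from wild type mice and measured as total RNA on Affymetrix arrays. Strain, age and the number of mice behind a sample are not in the labels used here, so the p-values measure the spread between these samples, which may be technical. Wild type cortical thymic epithelial cells (cTEC) and thymic macrophages (tMPh), 2 arrays each, served where a second epithelial or myeloid population was needed. The other 8 arrays, mTEC sorted by CD80 from wild type and AIRE knockout mice, entered the model to estimate the spread between arrays. They also counted in the filter on low signals and in the constant added before log2, which were set over all 16 arrays. A value is a probe set's signal on a linear scale, given for the first and then the second array of a group. A difference is mTEC minus dendritic cells on the scale log2(signal + 4.8), with its standard error, so that a difference of 1 is a 2-fold change above the added constant. Higher and lower refer to an adjusted p under 0.05 in limma.

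mTEC line the thymic medulla and transcribe many genes otherwise restricted to single tissues, a process called promiscuous gene expression that depends in part on the transcriptional regulator Aire. Thymic dendritic cells are haematopoietic cells that display antigens of their own and antigens taken from mTEC. Both cell types present self peptides on MHC molecules to developing T cells, which leads to deletion of self-reactive clones or to regulatory T cells.

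The marker of each label was high on the arrays that carry it. Krt17, a keratin of stratified epithelia, read 1860.6 and 1063.2 in mTEC and 4.1 and 3.8 in dendritic cells, a difference of 7.33 ± 0.81 (adjusted p = 1.34e-05). Itgax, the integrin CD11c of dendritic cells, read 39.1 and 54.4 in mTEC and 1187.8 and 1296 in dendritic cells, a difference of -4.61 ± 0.36 (adjusted p = 9.07e-07). The groups did not overlap for either gene. Krt5 and Krt14, keratins used to mark the medulla in sections, did not pass the filter on low signals: Krt5 read 8.1 and 16.3 against 9.9 and 10.8, and Krt14 6.2 and 15.1 against 2.0 and 2.1. Ccl21a and Ccl19 were not analysed here.

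Across the array 9319 probe sets passed the filter, a signal above 17.3 on at least 2 of the 16 arrays. A probe set could thus pass through arrays outside the comparison. limma called 2268 of them (24.3%), 1562 higher (16.8%) and 706 lower (7.58%) in mTEC, so that 68.9% of the calls were higher in mTEC. After quantile normalisation, which moved the median difference of all probe sets from 0.0973 to -0.137, that share was 58.4%. Counted once per gene, by the brightest probe set, 1828 of 6922 genes were called (26.4%), 1247 higher (18%) and 581 lower (8.39%), and the median difference was 0.10. Differences above 3 were found for 419 probe sets higher in mTEC and 69 lower. Of the 7051 probe sets not called, 1299 had a 95% interval that lay wholly within a 2-fold range in either direction. The arrays of both groups did not overlap for 34.4% of genes with mTEC above and for 24.8% with mTEC below.

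**Figure D1:**
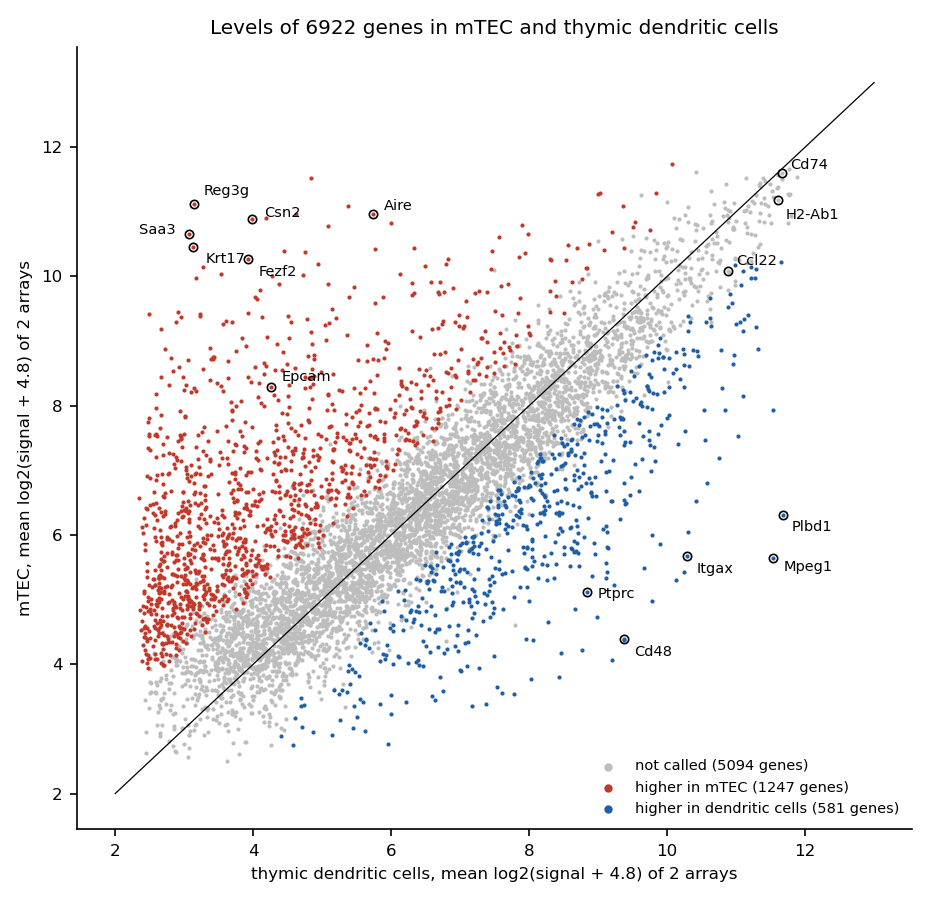
Mean level of each of 6922 genes in thymic dendritic cells (x axis) and mTEC (y axis), both as log2(signal + 4.8) averaged over 2 arrays, with the diagonal marking equal levels. The 1247 genes higher in mTEC reach from the dendritic cells' lowest levels to the top of the mTEC scale, and the 581 lower genes lie below the diagonal.

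The arrays correlated within groups at a Pearson r of 0.957 (mTEC) and 0.9449 (dendritic cells) across probe sets, which are not independent replicates. Signals above 17.3 were read for 61.5% and 64.7% of probe sets on the mTEC arrays and 53.0% and 56.0% on the dendritic cell arrays. The 3′ to 5′ signal ratio of Gapdh, which rises with RNA degradation or incomplete labelling, was 7.46 and 26.2 in mTEC and 3.88 and 17.5 in dendritic cells, and that of Actb was 8.08 and 7.33 against 5.55 and 8.68. The part of these array properties in the results was not tested. In sorted bulk samples, fewer cells of a type and less RNA per cell cannot be told apart. The following genes were read by probe sets that may also take up signal from related transcripts: Krt17, Ces1d, Fabp9, Cadps, Chgb, Ins2, Igf2, Klk1b22, Penk, Serpinb2, Zp2, Cldn7, Lamb1, H2-Q10, Fas, Alas2, Iigp1, Blnk, Flt3, Cd86, Cd80, Cd68, Fcgr2b, Evi2a, Cd8b1, Col1a2, Mcm3 and Tubb5.

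Reg3g, Saa3 and Krt20 were among the 15 genes furthest above the dendritic cells. Reg3g, a secreted antibacterial lectin of the intestine, read 1576.5 and 3154.5 in mTEC and 3.7 and 4.3 in dendritic cells, 254-fold on the scale with the constant added. Saa3, an acute-phase serum amyloid A protein, read 1434.3 and 1789.2 against 1.5 and 6.4. Krt20, a keratin of intestinal epithelium, read 1334.3 and 813 against 5.8 and 7.9. These dendritic cell values lay at or near the added constant, so the folds depend on it. On the other side, Mpeg1, Plbd1 and Il1b were among the 15 genes furthest below the dendritic cells. Mpeg1, the pore-forming protein perforin-2 of phagocytes, read 52.8 and 38.5 in mTEC and 2333.6 and 3771.5 in dendritic cells, 59.5-fold lower. Plbd1, a phospholipase B domain protein of myeloid cells, read 88.9 and 63 against 2779.8 and 3881.3. Il1b, the cytokine interleukin-1β, read 40.5 and 29.4 against 1822.8 and 678.7. No mTEC array overlapped a dendritic cell array for any of these 6 genes, which their choice among the largest called differences made likely. Over all genes the arrays did not overlap for 34.4% with mTEC above and for 24.8% with mTEC below.

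The 250 bases before the start sites of these 6 genes are shown because they come from the extremes of both sides and differ in the core promoter. They are from RefSeq on the mouse build GRCm38.p6: Reg3g at chr6:78468875-78469124 (minus strand), Saa3 at chr7:46715677-46715926 (minus), Krt20 at chr11:99438154-99438403 (minus), Mpeg1 at chr19:12460520-12460769 (plus), Plbd1 at chr6:136661894-136662143 (minus) and Il1b at chr2:129371140-129371389 (minus). Each is written 5′ to 3′ on the gene's strand and ends at the base before the start site. Capitals mark matches on either strand to TATAAA, the TATA box core, to GAGGAA, the core of sites for the haematopoietic factor PU.1, and to AACCGG, the core of sites for epithelial grainyhead-like factors.
Reg3g: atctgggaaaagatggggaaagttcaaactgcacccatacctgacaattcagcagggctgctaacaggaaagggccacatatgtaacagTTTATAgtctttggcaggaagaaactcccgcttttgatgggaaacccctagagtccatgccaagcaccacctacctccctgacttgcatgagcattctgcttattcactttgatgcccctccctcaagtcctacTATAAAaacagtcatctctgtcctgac
Saa3: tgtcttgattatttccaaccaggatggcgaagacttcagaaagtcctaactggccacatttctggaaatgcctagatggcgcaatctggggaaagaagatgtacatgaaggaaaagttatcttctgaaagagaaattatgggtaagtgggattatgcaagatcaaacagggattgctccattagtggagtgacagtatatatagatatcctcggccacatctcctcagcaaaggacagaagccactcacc
Krt20: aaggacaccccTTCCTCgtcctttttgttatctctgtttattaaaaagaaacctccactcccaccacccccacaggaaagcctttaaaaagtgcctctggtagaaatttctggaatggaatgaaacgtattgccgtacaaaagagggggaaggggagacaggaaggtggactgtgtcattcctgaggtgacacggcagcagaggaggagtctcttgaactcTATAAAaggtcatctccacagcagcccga
Mpeg1: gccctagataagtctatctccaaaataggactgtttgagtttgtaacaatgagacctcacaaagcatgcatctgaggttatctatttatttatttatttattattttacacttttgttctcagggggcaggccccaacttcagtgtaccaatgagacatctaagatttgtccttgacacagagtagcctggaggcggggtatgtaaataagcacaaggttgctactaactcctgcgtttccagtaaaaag
Plbd1: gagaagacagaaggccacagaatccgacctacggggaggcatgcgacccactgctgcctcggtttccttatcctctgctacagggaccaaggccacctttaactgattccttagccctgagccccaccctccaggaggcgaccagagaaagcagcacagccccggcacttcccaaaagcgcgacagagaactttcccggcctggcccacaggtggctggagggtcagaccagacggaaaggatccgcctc
Il1b: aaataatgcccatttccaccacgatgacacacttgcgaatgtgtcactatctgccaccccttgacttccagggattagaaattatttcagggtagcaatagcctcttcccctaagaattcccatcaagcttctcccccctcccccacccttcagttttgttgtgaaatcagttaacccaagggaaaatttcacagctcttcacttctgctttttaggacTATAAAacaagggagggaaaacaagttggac

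In these windows TATAAA began 27 bases before the start site of Reg3g, 29 before that of Krt20 and 31 before that of Il1b. Il1b and Krt20 were added after the sequences were seen, because of this match, and the other 4 are the extremes of each side with a promoter entry. Of the 30 genes with the largest differences 23 had a promoter entry, and only these 3 of the 23 held TATAAA near the start. The 6 windows shown are therefore not typical of the extreme genes in this respect. GAGGAA matched once, in reverse in Krt20, and AACCGG in none. A promoter entry was found for 5556 of the 6922 genes. TATAAA on the gene's strand within the 40 bases before the start occurred in 84 of 1255 promoters of genes higher in mTEC (6.69%), in 12 of 622 of genes lower in mTEC (1.93%), in 204 of 7143 of all genes tested (2.86%) and in 2.31% of all 32851 promoters. Among genes higher by more than 3 it occurred in 27 of 341 (7.92%), and among genes lower by more than 3 in 1 of 59 (1.69%). The number of CG dinucleotides in the 250 bases had a median of 8 for genes higher in mTEC, 14 for genes lower, 14 for all genes tested and 6 for all promoters. GAGGAA on either strand was held by 22.71% of promoters of genes higher and 25.56% of genes lower, beside 23.13% of all tested, and AACCGG by 5.18% and 6.59% beside 8.22%. A match is a description of the sequence, and no factor was measured.

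Epithelial genes were higher in mTEC in most of the members that could be tested. Of the list of thymic epithelial genes 26 were on the array and 21 passed the filter, of which 17 were higher and 0 lower, with a median difference of 3.15. The filter counted all 16 arrays, so a member could also pass through other groups. A member that passes only through the group where it is high tends to differ by that choice. These counts therefore describe the members tested and are set beside the 18% of all genes that were higher. Krt8, a keratin of simple epithelia, read 2032.8 and 2308 against 59.8 and 22, a difference of 5.71 ± 0.67 (adjusted p = 2.36e-05). Epcam, the epithelial adhesion molecule used to sort thymic epithelium, read 342.9 and 276.5 against 8.1 and 23.6 (4.03 ± 0.48). Foxn1, the transcription factor required for thymic epithelial development, was at a low level, 18.7 and 36.9 against 2.8 and 2.1, and its difference of 2.11 ± 0.36 passed the test. All 3 genes were separated between the groups.

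Junction and matrix genes showed the same direction, and their counts are set beside 18% of all genes higher and 8.39% lower. Of the junction and claudin genes, 14 of 22 tested were higher and 1 lower (29 on the array, median 2.55). Dsp, the desmosomal plaque protein desmoplakin, read 876.1 and 762.3 against 9.5 and 13.6 (5.66 ± 0.31, adjusted p = 8.5e-08). Gjb2, the gap junction protein connexin 26, and Cldn7, a tight junction claudin, differed by 5.31 ± 0.33 and 5.25 ± 0.45. The member that was lower was Cldn1, another claudin, at 33.1 and 30.7 against 75.3 and 214.2 (-1.85 ± 0.44), and the call was lost without the second dendritic cell array (-1.13, adjusted p = 0.0959). Of basement membrane and matrix adhesion genes, 19 of 24 tested were higher and 0 lower (27 on the array, median 2.29). Among them Col4a1, a chain of basement membrane collagen, read 320.3 and 537.3 against 5.6 and 1.9, and Lamb1, a laminin chain, 102.2 and 121 against 1.6 and 0.9.

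Medullary and cortical genes of the epithelium were counted separately, and the difference between both lists was not tested. Their counts stand beside 18% of all genes higher and 8.39% lower. Of medullary genes 6 of 19 tested were higher and 1 lower (21 on the array, median 0.16), 2 lower with the replicate block, and the median was -0.03 after quantile normalisation. Aire read 1386 and 2886.8 against 65.2 and 36.1, a 37.5-fold difference (5.23 ± 0.51, adjusted p = 4.94e-06). Fezf2, a transcription factor that controls tissue-restricted genes in mTEC apart from Aire, read 1360.3 and 1106.2 against 10.2 and 10.6 (6.34 ± 0.61). Krt10, a keratin of differentiated keratinocytes, read 1022.1 and 620 against 9.8 and 14.3 (5.58 ± 0.54). The lower member, Irf7, a regulator of interferon genes, read 95.8 and 79.9 against 371.6 and 326 (-1.93 ± 0.33). Of cortical genes 6 of 13 tested were higher and 0 lower (14 on the array, median 1.68). Ccl25, a chemokine that attracts thymocyte progenitors, read 1588.7 and 1140.8 in mTEC against 20.4 and 13.9 in dendritic cells (5.96 ± 0.70), and 2082.7 and 3714.8 in cTEC. Ctsl, the protease of class II processing in cTEC, read 1616.8 and 798.4 against 111.6 and 64.7 (3.67 ± 0.49). Cxcl12, a chemokine of cortical stroma, read 54.5 and 54.6 in mTEC, 2.6 and 4.8 in dendritic cells and 1245.3 and 1248.7 in cTEC, so it was above dendritic cells (2.82 ± 0.59) and below both cTEC arrays in signal.

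Dendritic cell and pan-leukocyte genes had the opposite direction. Of dendritic cell genes 16 of 28 tested were lower in mTEC and 0 higher (30 on the array, median -1.61), and of pan-leukocyte genes 23 of 33 were lower and 0 higher (34 on the array, median -2.31), beside 8.39% of all genes that were lower. Flt3, the growth factor receptor needed for dendritic cell development, read 85 and 90.6 against 1427.2 and 1294.3 (-3.88 ± 0.48). Itgae, the integrin CD103, read 8.6 and 21 against 440.7 and 417.5 (-4.54 ± 0.50). Ptprc, the leukocyte common antigen CD45, read 16.4 and 51.8 against 213.9 and 950.5 (-3.72 ± 0.80, adjusted p = 0.00323). The dendritic cell arrays differed widely from each other for Ptprc, and both were above both mTEC arrays. Integrin chains Itgb2 (10.2 and 24 against 739.8 and 583.4) and Itgb7 (58.7 and 48.6 against 1230.6 and 732.7), the surface protein Cd48 (13.2 and 19.7 against 649.1 and 668.2) and the cytoskeletal adaptor Hcls1 (12 and 11.9 against 855.7 and 399.6) did not overlap between the groups either. The rule that named these genes picks by p or by size, which made this likely.

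Genes of the dendritic cell subsets were measured side by side. Batf3 and Irf8 encode transcription factors of the cross-presenting subset, Xcr1 its chemokine receptor and Cd8a a surface marker of that subset in mouse lymphoid organs, while Sirpa marks the other conventional subset. Batf3 read 197.3 and 183.2 in mTEC and 1485.8 and 994.7 in dendritic cells (-2.65 ± 0.49). Irf8 read 440.4 and 798.7 against 2157.1 and 2909.8 (-2.07 ± 0.39), and Xcr1 23.7 and 26.4 against 134.1 and 141.8 (-2.26 ± 0.43). Sirpa read 44.2 and 35.4 against 157.5 and 140.8 (-1.79 ± 0.31), and 1013.3 and 1209.2 in macrophages. All 4 were lower in mTEC, without overlap. Cd8a read 79.2 and 47.1 against 1421.6 and 1106.7 (-4.25 ± 0.67), and thymocytes express it too. Cd8b1, the partner chain on thymocytes, read 46.3 and 55.2 against 594.5 and 530.4 (-3.35 ± 0.57). Of the CD3 subunits of the T cell receptor, Cd3e read 2.7 and 4.9 against 4.1 and 9.6. Cd3g read 9.9 and 17.8 against 54.8 and 41.6, and Cd3d 4.9 and 9.9 against 28.6 and 24.1. None of these subunits was called. The part of thymocyte RNA in the Cd8a value was not tested.

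**Figure D2:**
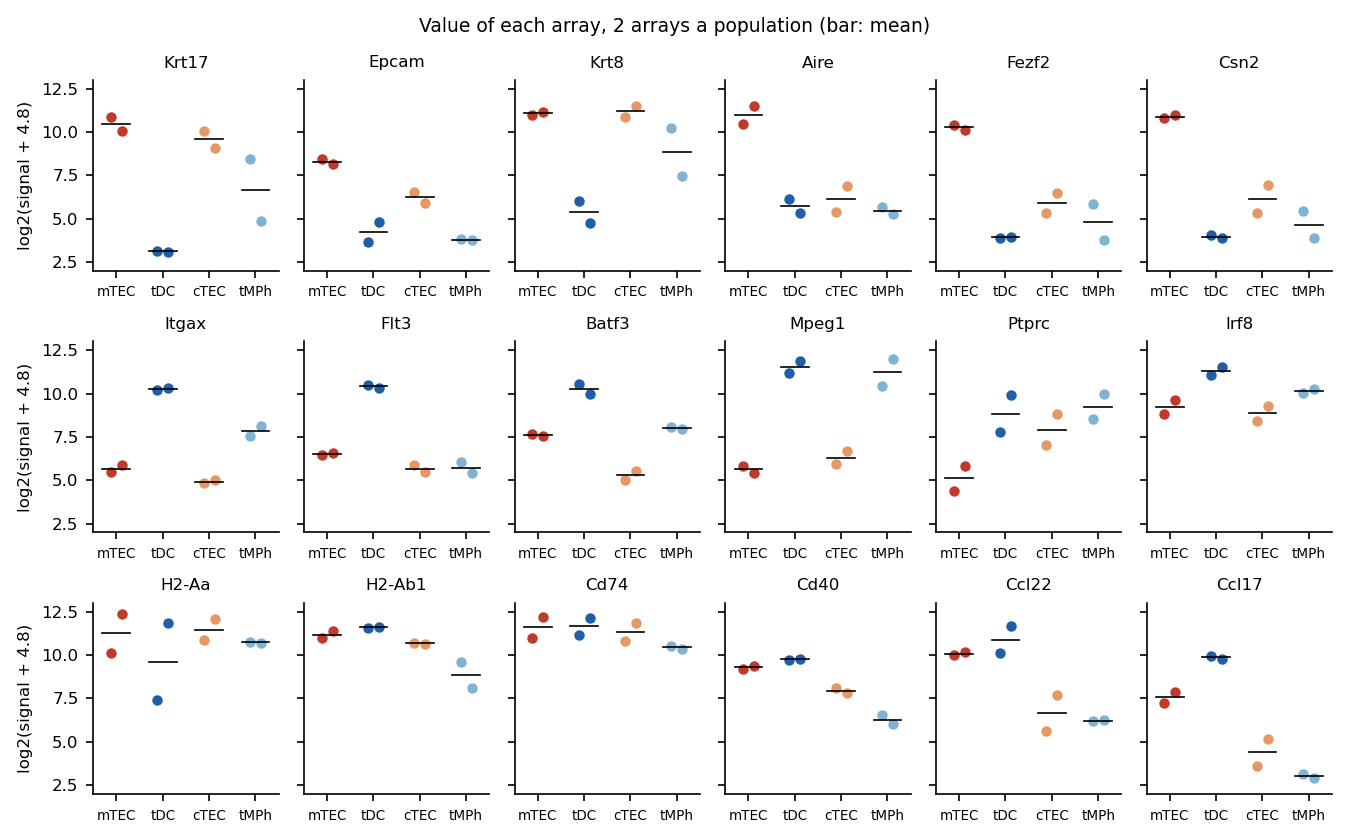
Value of every array for 18 genes, as log2(signal + 4.8), in mTEC, dendritic cells (tDC), cTEC and macrophages (tMPh), with a bar at the mean of the 2 arrays. Krt17, Epcam, Krt8, Aire, Fezf2 and Csn2 are high in mTEC and low in dendritic cells, Itgax, Flt3, Batf3, Mpeg1, Ptprc and Irf8 the reverse, while H2-Aa, H2-Ab1, Cd74, Cd40 and Ccl22 did not pass the test.

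Transcription factors of the blood lineages were not lower throughout, and are read beside 8.39% of all genes lower and 18% higher. Of 33 tested, 7 were lower and 3 higher (37 on the array, median -0.18 and 0.06 without a filter), and the count of lower members fell to between 2 and 4 when any 1 of the 4 arrays was left out and to 4 with only the 8 unfractionated arrays in the fit. Irf5, which drives inflammatory cytokine genes, read 174.1 and 171.8 against 889.9 and 815.2 (-2.27 ± 0.40). Spi1, which encodes PU.1, read 4.2 and 39.9 against 104.3 and 162.2 (-2.75 ± 0.70, adjusted p = 0.00939). The 2 mTEC arrays differed widely for Spi1, and its call was lost without the first mTEC array (adjusted p = 0.145) and without the second dendritic cell array (adjusted p = 0.0641). Higher in mTEC were Id3, an inhibitor of E proteins (169.4 and 184.2 against 44.2 and 36.6), Gata2, a factor of progenitors and mast cells (59.4 and 59.4 against 14.2 and 20.8), and Cebpb (159.7 and 124.1 against 31.5 and 13.9). The call of Cebpb was lost without the first mTEC array (adjusted p = 0.0666) and without the second dendritic cell array (adjusted p = 0.0798).

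Most genes of MHC class II presentation were not called. All 18 on the array passed the filter, and 3 were lower in mTEC and 0 higher, with a median of -0.57. Of all genes 8.39% were lower and 18% higher. H2-Ab1, the β chain of I-A, read 2033.9 and 2632.2 in mTEC and 3056.2 and 3147.1 in dendritic cells, a difference of -0.42 (95% interval -1.25 to 0.41). Cd74, the invariant chain, read 2023.3 and 4718.2 against 2311.6 and 4531.5 (-0.07, interval -1.10 to 0.97). H2-Eb1, the β chain of I-E, read 2002.3 and 4299.1 against 1234.9 and 4156.8 (0.37, interval -0.68 to 1.43). The groups overlapped for Cd74 and H2-Eb1 and not for H2-Ab1, and each of the 3 intervals includes a 2-fold difference. H2-Aa, the α chain of I-A, read 1121.5 and 5358 against 165.9 and 3638.8 (1.64, interval -0.50 to 3.78). Its second arrays were far above the first in both populations, and without the second dendritic cell array it was higher in mTEC (3.85, adjusted p = 0.00137). Ciita, the transactivator of class II genes, read 112.5 and 81 against 220.9 and 126.7 (-0.78, interval -1.87 to 0.31).

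The 3 class II pathway genes that were lower act on peptide loading and antigen breakdown. H2-DMa, a chain of the peptide exchange factor, read 367.8 and 582.2 against 1785.1 and 1725.2 (-1.91 ± 0.41). Ifi30, the lysosomal thiol reductase GILT, read 533.1 and 602.7 against 2461.4 and 1943.6 (-1.94 ± 0.36). Lgmn, the asparaginyl endopeptidase, read 36.2 and 25.2 against 140.3 and 72.7 (-1.60 ± 0.39), a call lost without the second mTEC array (adjusted p = 0.077) and without the first dendritic cell array (adjusted p = 0.101). Ctss, the protease that cleaves the invariant chain in dendritic cells, read 1811.8 and 1818.4 against 3065.7 and 3904.9 (-0.93 ± 0.40, adjusted p = 0.116). With the sample number as a replicate block the adjusted p of Ctss was 0.0337 within the unfractionated groups and 0.0499 over all arrays, the count of lower class II genes rose from 3 to 5, and 1 was higher within the unfractionated groups.

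Among 23 tested cathepsins and lysosomal proteases (25 on the array), 4 were higher and 8 lower (median -0.68), beside 18% and 8.39% of all genes. The higher share was near that of all genes. The lower count was 3 without the second mTEC array and 4 without the first dendritic cell array. Besides Ctsl, Ctsf read 165.3 and 121.2 against 10.5 and 12.9 (3.15 ± 0.38), and Ctsk, a collagen-degrading cathepsin, 109.8 and 86.4 against 19.9 and 28.3 (1.84 ± 0.37). On the other side Cd68, a lysosomal glycoprotein of phagocytes, read 73.6 and 45.3 against 632.7 and 304.3 (-2.82 ± 0.41), and Cst7, a cysteine protease inhibitor of leukocytes, 7.9 and 24.8 against 160.5 and 84.4 (-2.65 ± 0.52).

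Of 16 tested MHC class I and proteasome genes (17 on the array), 1 was higher and 3 lower, with a median of 0.01. Of all genes 18% were higher and 8.39% lower. H2-Q10, a class I gene of liver, was the higher one at 441.1 and 320.4 against 28.1 and 20.7 (3.72 ± 0.30). Psmb9, a subunit of the immunoproteasome, read 665 and 554.6 against 2100.7 and 1991.4 (-1.74 ± 0.34). Psmb8, another immunoproteasome subunit, and Psme1, a proteasome activator subunit, differed by -1.18 ± 0.40 and -1.35 ± 0.45 with adjusted p values of 0.0448 and 0.0411. Quantile normalisation, dropping the filter or leaving out 1 array ended the calls of both, except that Psmb8 was still called without the first mTEC array, and Psmb8 also lost its call without a trend and in the fits of 4 or 8 arrays (adjusted p = 0.0551, 0.0872 and 0.0961). After quantile normalisation, without a filter and when any 1 array other than the first of mTEC was left out, 1 member was lower. After quantile normalisation and with the replicate block 2 were higher, and the median was -0.26 without the second mTEC array and -0.22 without the first dendritic cell array.

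Costimulatory genes were called in both directions, and their counts stand beside 18% of all genes higher and 8.39% lower. The share of higher genes was below that of all genes. Of 14 tested (16 on the array), 2 were higher and 3 lower (median 0.20, -0.25 without the first dendritic cell array and -0.02 after quantile normalisation). Cd86, the ligand B7-2 of CD28, read 57.4 and 50.3 in mTEC against 308.6 and 547.3 (-2.83 ± 0.48), and Cd83, a maturation marker that also affects class II turnover, 287.8 and 201 against 2136.8 and 1575.1 (-2.91 ± 0.35). Cd80, the ligand B7-1 that was used to sort mature mTEC elsewhere in the series, read 40.3 and 30.4 against 32.9 and 35.5 (0.03, interval -0.76 to 0.83). Cd40, the receptor through which T cells license antigen presenting cells, read 592.1 and 666.6 against 852.9 and 874.2 (-0.46, interval -1.11 to 0.20). The Cd80 values overlapped, and those of Cd40 did not overlap but missed the threshold. Cd70, the ligand of CD27, read 245.4 and 205.5 against 99 and 69.8 (1.38 ± 0.42, adjusted p = 0.026), a call that was lost without either mTEC array and without the second dendritic cell array, with adjusted p values from 0.0763 to 0.143. Fas, a death receptor, read 132 and 81 against 22.5 and 31.9 (1.78 ± 0.43), lost without the first mTEC or the first dendritic cell array (adjusted p = 0.0846 and 0.0617).

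Chemokines were more often higher in mTEC, and their receptors more often lower. Of 23 tested chemokines (25 on the array), 13 were higher and 3 lower (median 1.60), beside 18% and 8.39% of all genes. After Ccl25, Cxcl10, an interferon-induced ligand of CXCR3, read 362 and 317.5 against 24.6 and 21.9 (3.62 ± 0.46), and Ccl9 1130.7 and 637.1 against 156.2 and 131.7 (2.53 ± 0.33). Dendritic cells were higher for Ccl17, a ligand of CCR4, at 148.5 and 228.8 in mTEC against 991.3 and 869.6 (-2.30 ± 0.51), and for Ccl3, an inflammatory chemokine, at 23.7 and 24.9 against 155.1 and 72.5 (-1.93 ± 0.37). Ccl4 read 2.9 and 12 against 255.4 and 31.2, a difference of -3.09 ± 0.70 with the dendritic cell arrays far apart, and its call was lost without the first mTEC or the first dendritic cell array (adjusted p = 0.0583 and 0.0663). Ccl22, the other CCR4 ligand, was high in both, at 1019.1 and 1144.6 against 1093.8 and 3221.9 (-0.80, interval -2.30 to 0.71). Of 20 tested chemokine receptors (24 on the array), 6 were lower and 3 higher (median -0.03, 0.16 without the first mTEC array). The share of higher receptors was near the 18% of all genes, and 8.39% of all genes were lower. Ccr7, the receptor that guides cells into the medulla, read 53.3 and 38.8 against 306.6 and 218 (-2.39 ± 0.43), and Cxcr3, the receptor of Cxcl10, 3.7 and 12.3 against 108.6 and 98 (-3.16 ± 0.69). The 3 higher receptors, Ackr3, Ackr4 and Cxcr5, each stayed at or under 37.6 on the mTEC arrays, and the calls of Ackr3 without the second mTEC array (adjusted p = 0.0663), of Cxcr5 without either first array (adjusted p = 0.0676 and 0.0793) and of Ackr4 in 3 of these 4 fits (adjusted p from 0.14 to 0.259) and after quantile normalisation (0.115) were lost.

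Of cytokine receptors and signal adaptors, 6 of 37 tested were higher and 10 lower (43 on the array, median -0.52), beside 18% and 8.39% of all genes. The higher share was near that of all genes. Il18r1, a chain of the interleukin-18 receptor, read 294.2 and 239.1 against 6.4 and 13.1 (4.25 ± 0.44), and Il1r1, the interleukin-1 receptor, 100.7 and 120.8 against 18.3 and 30.4 (2.01 ± 0.35). Its ligand gene Il1b was high on the dendritic cell arrays instead. Blnk, an adaptor of B cell receptor signalling, read 708.6 and 943.5 in mTEC against 57 and 52 (3.80 ± 0.47). Tyrobp, the adaptor DAP12 of myeloid receptors, read 44.1 and 33.1 against 1614.6 and 900.6 (-4.81 ± 0.55), and Btk, a kinase that B cells and myeloid cells share, 19.7 and 12.7 against 440.7 and 152.6 (-3.68 ± 0.44). Of 18 tested Fc receptors, lectins and Toll-like receptors (22 on the array) 2 were higher and 4 lower (median -0.66), beside the same 18% and 8.39%. After quantile normalisation 8 were lower. The higher count was 1 without either mTEC array, without the second dendritic cell array, after quantile normalisation, with a constant of 1, with the filter at 50 and in a fit of only the 4 arrays. Ly86, the MD-1 partner of a Toll-like receptor homologue, read 41.1 and 38.9 against 725.6 and 904.7 (-4.19 ± 0.43), and Fcgr2b, the inhibitory IgG receptor, 5.4 and 5.8 against 186.2 and 140.7 (-4.00 ± 0.48). Fcer2a, the low-affinity IgE receptor of B cells, was higher in mTEC at 183.8 and 127 against 11.9 and 5.4 (3.59 ± 0.42).

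Lists of genes characteristic of other tissues were read against the 18% of all genes that were higher in mTEC and the 8.39% that were lower. Anpep was the only member of these lists called lower, apart from 1 gland gene without a filter and 1 muscle and 1 germ cell gene after quantile normalisation. Of liver and plasma protein genes 25 of 39 tested were higher (52 on the array, median 1.77), of pancreas genes 20 of 28 (39 on the array, 1.97), and of intestine and stomach genes 19 of 30 with 1 lower (37 on the array, 2.07). Apoa4, an intestinal apolipoprotein, read 709.8 and 552.6 against 2.6 and 2.5 (6.42 ± 0.55). Apoa1, the apolipoprotein of high-density lipoprotein, read 237.2 and 237.7 against 3.6 and 2.2 (4.98 ± 0.38). Vil1, the microvillus protein villin, read 180.2 on both mTEC arrays against 0.5 and 1.1 (5.05 ± 0.36), and Tff2, a trefoil peptide of gastric mucus, 159.3 and 138.7 against 1.5 and 2.7 (4.48 ± 0.34). Chgb, a granule protein of endocrine cells, read 467.7 and 211.7 against 3.0 and 1.2 (5.55 ± 0.42). The dendritic cell values of these 5 genes were all under the filter minimum of 17.3. Anpep, an aminopeptidase of the intestinal brush border that myeloid cells also carry, read 21.9 and 6.9 against 59.6 and 53.1 (-1.79 ± 0.54), and lost its call in 3 of the 4 fits without an array (adjusted p from 0.0698 to 0.244) and with only the 8 unfractionated arrays (0.0752).

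Gland, skin and nervous system genes were counted in the same way, again beside 18% of all genes higher. Of mammary, salivary, lacrimal and prostate gland genes 20 of 24 tested were higher (33 on the array, median 2.78), of skin and cornified envelope genes 22 of 29 (34 on the array, 1.87), and of nervous system and eye genes 18 of 32 (47 on the array, 1.43), with 0 lower in each. Csn2, the milk protein β-casein, read 1790.8 and 1996.9 against 11.7 and 10.3 (6.91 ± 0.55, 120-fold). Csn1s1, another casein, read 76.9 and 163.8 against 1.0 and 0.7 (4.38 ± 0.39). Klk1b22, a kallikrein of salivary gland, read 490.7 and 496 against 15.8 and 15.2 (4.62 ± 0.34). Sprr1a, a precursor of the cornified envelope, read 1164.6 and 1515.4 against 25.5 and 18.9 (5.64 ± 0.39), and Serpinb2, a protease inhibitor of keratinocytes and macrophages, 855 and 535.7 against 9.0 and 1.6 (6.18 ± 0.52). Penk, the precursor of enkephalins, read 683.1 and 653.7 against 20.1 and 15.7 (4.90 ± 0.41), and 703.7 and 532.7 in cTEC. Syt1, the calcium sensor of synaptic vesicles, read 292.9 and 169.5 against 4.0 and 2.6 (4.82 ± 0.38), and Tac1, the precursor of substance P, 66.4 and 91.7 against 0.4 and 3.5 (3.66 ± 0.36).

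Muscle, germ cell, endocrine, lung and kidney genes were counted the same way, beside 18% of all genes higher. Of striated muscle genes 19 of 41 tested were higher (48 on the array, median 1.0), of testis and germ cell genes 7 of 21 (37 on the array, 0.57), of endocrine genes 12 of 26 (37 on the array, 1.15) and of lung and kidney genes 10 of 15 (22 on the array, 1.70), with 0 lower in each. The lung and kidney count was 5 or 6 after quantile normalisation, with the filter at 50 and when any 1 of the 4 arrays was left out. Myh4, a fast skeletal muscle myosin, read 370.3 and 162 against 0.4 and 2.2 (5.37 ± 0.39), and Actn3, the α-actinin of fast fibres, 297.6 and 310.5 against 5.4 and 2.8 (5.13 ± 0.42). Ins2, which encodes insulin, read 143.2 and 229 against 0.6 and 2.0 (4.94 ± 0.50), and Pth, parathyroid hormone, 111.3 and 82.1 against 4.2 and 4.9 (3.43 ± 0.49). Fabp9, a fatty acid binding protein of sperm, read 1526.9 and 833.7 against 2.6 and 7.8 (6.87 ± 0.53). Scgb1a1, the secretory protein of airway club cells, read 98.4 and 134.9 against 7.7 and 1.1 (3.81 ± 0.43), and Umod, the kidney protein uromodulin, 39.4 and 44.7 against 0.3 and 2.9 (2.90 ± 0.43). Of genes reported earlier as Aire targets, 16 of 21 tested were higher and 0 lower (22 on the array, median 2.77); such lists may have been drawn from these samples and are not independent evidence of the direction.

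**Figure D3:**
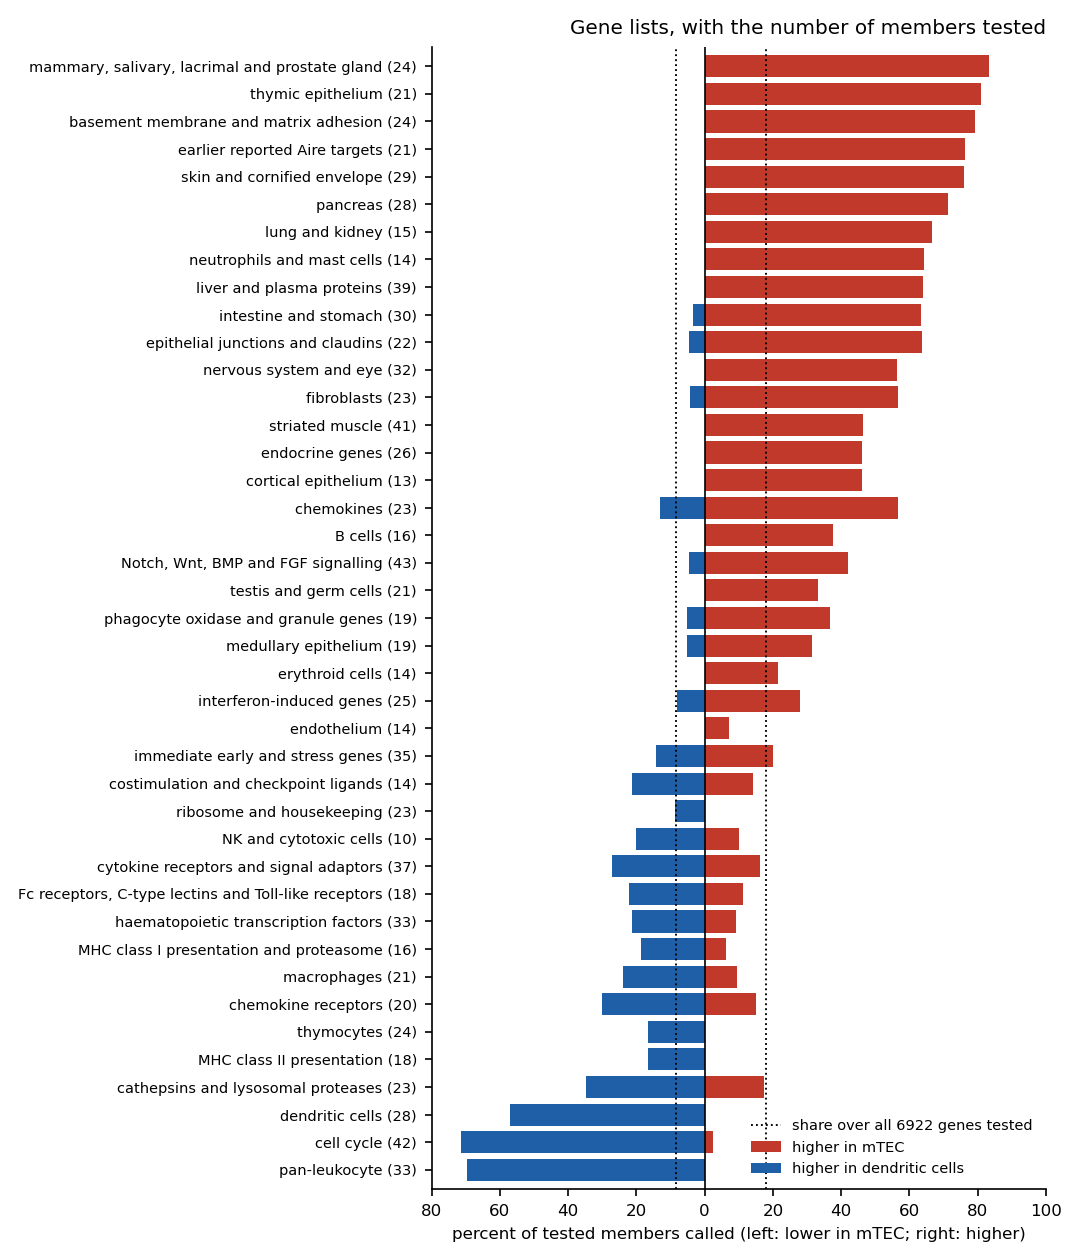
Percent of tested members called higher in mTEC (right) or in dendritic cells (left) for each gene list, with the number of members tested in brackets and dotted lines at the shares over all 6922 genes, 18% and 8.39%. The tissue lists and the epithelial lists extend to the right, and the cell cycle, pan-leukocyte and dendritic cell lists to the left.

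Most cell cycle genes tested were lower in mTEC. Of 42 tested, 30 were lower and 1 higher (45 on the array, median -2.06), beside 8.39% and 18% of all genes. Top2a, the topoisomerase of dividing cells, read 37.2 and 71.2 in mTEC and 533.4 and 575.7 in dendritic cells (-3.31 ± 0.45, adjusted p = 8.41e-05). Tk1, a thymidine kinase of S phase, read 78.8 and 45 against 394.7 and 289.8 (-2.41 ± 0.35), and Mcm3, a subunit of the replicative helicase, 90.1 and 95.6 against 536.4 and 426.4 (-2.31 ± 0.34). The member that was higher was Ccnd2, a D-type cyclin, at 128 and 121.9 against 36.2 and 32.9 (1.72 ± 0.37). None of these 4 genes overlapped between the groups, which their choice by p made likely. The summed signal of the 9 measured thymocyte markers was 301.3 and 323.3 in mTEC and 1107.6 and 1547.9 in dendritic cells. Of the 9, 2 were lower in mTEC (Cd8b1 and Rag1) and 0 higher. In cTEC and macrophages the sums were 2913.4 and 5540.6, and 4545.6 and 2385.7, where Top2a read 145.4 and 284.2, and 308.2 and 213. Only Top2a of the 42 genes is given for these arrays, and the part of thymocyte RNA in the cell cycle result was not tested.

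**Figure D4:**
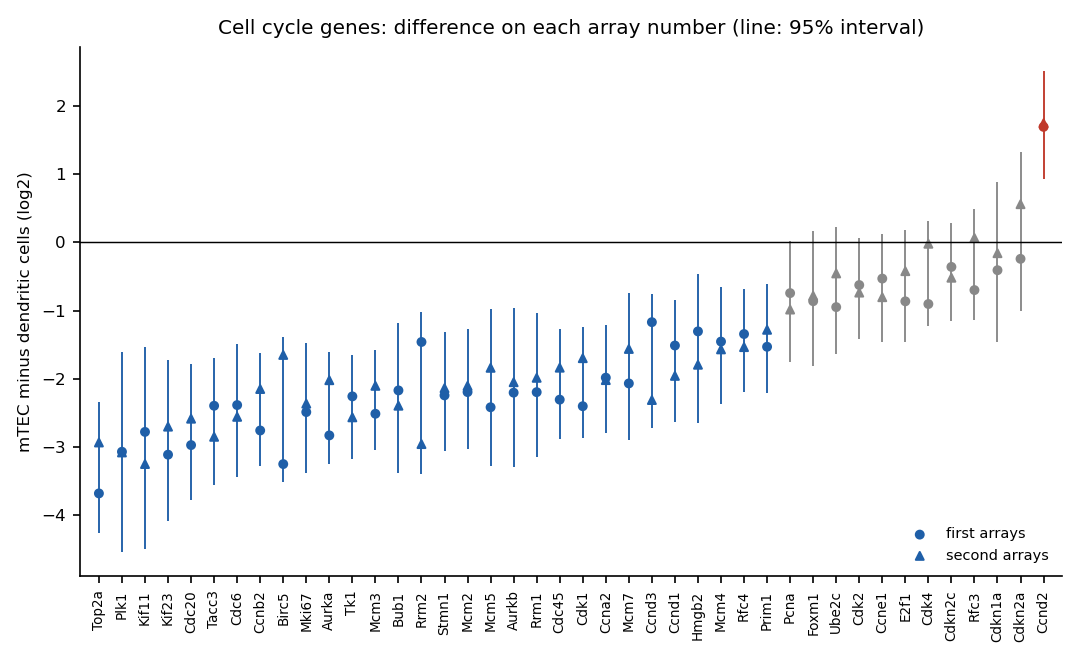
Difference of mTEC minus dendritic cells for 42 cell cycle genes on the log2(signal + 4.8) scale, on the first arrays (circles) and the second arrays (triangles), with the 95% interval of the fit as a line. The 30 genes that were lower are blue, Ccnd2 is the 1 higher gene, and the others, in grey, did not pass the test.

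Signalling genes were called in both directions, beside 18% of all genes higher and 8.39% lower. The list of Notch, Wnt, BMP and FGF genes also held some genes outside these pathways, Erbb3 and Igfbp3 among them. Of the Notch, Wnt, BMP and FGF genes 18 of 43 tested were higher and 2 lower (55 on the array, median 0.96), with 4 lower after quantile normalisation and 1 lower without either second array and with only the 8 unfractionated arrays. Fgfr2, the receptor of the epithelial growth factors FGF7 and FGF10, read 157.5 and 236.1 against 13.7 and 17 (3.30 ± 0.35), and Erbb3, a neuregulin receptor, 186.6 and 230.4 against 17.8 and 18.2 (3.22 ± 0.30). Igfbp3, which binds insulin-like growth factors, read 56.1 and 96 against 1.6 and 1.7 (3.60 ± 0.44). Notch4 was lower at 8.2 and 18.9 against 228.8 and 134.3 (-3.36 ± 0.48). Id2, an inhibitor of E proteins needed for dendritic cells, read 704.8 and 501.7 against 1341.2 and 1871.6 (-1.41 ± 0.38, adjusted p = 0.0137), and its call was lost without the second mTEC array (adjusted p = 0.123), without the second dendritic cell array (0.0976) and with only the 8 unfractionated arrays (0.0607). Of the immediate early and stress genes all 35 on the array were tested, and 7 were higher and 5 lower (median 0.08), near the 18% of all genes higher and above the 8.39% lower. The higher count was 3 or 4 without either first array and with only the 8 unfractionated arrays, and the lower count was 3 without the second mTEC or the first dendritic cell array. The median was -0.04 without the second mTEC array. Ccn1, a matrix-associated YAP target, read 227 and 89.2 against 1.3 and 1.1 (4.62 ± 0.53), Gadd45a 1930.9 and 1641.3 against 253 and 216.9 (2.90 ± 0.35) and Fosl1, an AP-1 component, 65.7 and 64.8 against 2.5 and 1.8 (3.34 ± 0.42). Nr4a1, an orphan nuclear receptor induced by activation, was lower at 141 and 186.9 against 1078.7 and 674.6 (-2.36 ± 0.48).

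Of 25 tested interferon-induced genes (26 on the array) 7 were higher and 2 lower (median 0.24), beside 18% and 8.39% of all genes. The lower share was near that of all genes. With the replicate block 5 were lower, and the median was -0.08 without the second mTEC array and -0.20 without the first dendritic cell array. Ifit1 read 275.1 and 434 against 13.7 and 42.1 (3.57 ± 0.52), and Iigp1, an interferon-γ induced GTPase, 240.1 and 223.6 against 15.2 and 18 (3.47 ± 0.39). Mx1, an antiviral GTPase induced by type I interferon, was lower along with Irf7, at 113.7 and 87 against 443.2 and 303.6 (-1.83 ± 0.37). Of ribosome and housekeeping genes 2 of 23 tested were lower and 0 higher (25 with a probe set other than a control, median -0.40). The lower share was near the 8.39% of all genes. With the replicate block 5 were lower. Gusb, the lysosomal β-glucuronidase, read 377.4 and 252.5 against 1442.6 and 1019.9 (-1.96 ± 0.32). Tubb5, a tubulin, differed by -1.77 ± 0.44 and lost its call without the second mTEC or the first dendritic cell array (adjusted p = 0.0658 and 0.0759), which left 1 lower gene.

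Markers of further cell types differed between the sorts, and their counts stand beside 18% of all genes higher and 8.39% lower. Of neutrophil and mast cell genes 9 of 14 tested were higher in mTEC and 0 lower (19 on the array, median 2.01). S100a8, a calcium-binding protein of neutrophils, read 327 and 569.8 against 18.4 and 28.2 (3.98 ± 0.51), Camp, the cathelicidin of neutrophil granules, 311.5 and 307.2 against 18.6 and 29.2 (3.48 ± 0.41), and Hdc, the enzyme of histamine synthesis, 1831.2 and 2180.2 against 22.6 and 17.3 (6.35 ± 0.64). S100a8 and S100a9 are also counted in the list of genes reported earlier as Aire targets. The neutrophil protease Elane read 14.6 and 28.6 against 18.3 and 18.6 and was not called. Of pan-leukocyte genes, Ptprc and Itgb2 were low on the same mTEC arrays. The summed signal of all 33 tested was 8690.9 and 9776.5 in mTEC and 25724.4 and 26545.2 in dendritic cells. Of B cell genes 6 of 16 tested were higher and 0 lower (19 on the array, median 0.85), 3 without the second mTEC array. Blk, a kinase of B cells, read 263.9 and 219.5 against 34.9 and 28.1 (2.76 ± 0.49), whereas Cd79a read 5.2 and 30.6 against 28.3 and 5.0 and Pax5 11.3 and 20 against 14.8 and 23.2, neither called. Of fibroblast genes 13 of 23 tested were higher and 1 lower (24 on the array, median 1.54). Timp3, a metalloproteinase inhibitor, read 484.6 and 914.2 against 0.9 and 10.6 (6.16 ± 0.48) and Col5a2, a fibrillar collagen, 242.9 and 347.4 against 2.1 and 5.9 (5.10 ± 0.41), while Col1a1 read 39.3 and 63.8 against 31.6 and 36.7 and Col1a2 118.3 and 123.2 against 107.7 and 119.5, neither called. The lower gene was Thy1, also a thymocyte gene, at 36.1 and 69.5 against 214.7 and 310.5, which lost its call in each of the 4 fits without an array (adjusted p from 0.0567 to 0.198). The part of neutrophils, B cells or fibroblasts in the mTEC sort was not tested.

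Further marker lists were read against the same shares, 18% of all genes higher and 8.39% lower. Macrophage genes gave 2 higher and 5 lower of 21 tested (23 on the array, median -0.45), with 3 lower without the first mTEC array. The higher count was 0 without either mTEC array, 1 without the first dendritic cell array, after quantile normalisation, with a constant of 1 and with the filter at 50, and 5 and 4 with the replicate block over all arrays and within the unfractionated groups. The median was 0.01 without the second mTEC array and 0.03 without a filter. C1qa, a chain of complement C1q, read 51.1 and 45.8 in mTEC, 525.4 and 300.5 in dendritic cells and 2143.7 and 2665.8 in macrophages, and Csf1r, the receptor of macrophage growth factors, 59.7 and 91.9, 308 and 374.4, and 1162.7 and 2325.2. Dendritic cells thus lay between mTEC and macrophages for both genes. The summed signal of 10 macrophage markers was 1418.5 and 1932.6 in mTEC, 2359.7 and 2406.7 in dendritic cells and 11802.4 and 21894.8 in macrophages. Thymocyte genes gave 0 higher and 4 lower of 24 tested (24 on the array, median -1.10), 9 lower after quantile normalisation, 7 lower in a fit of only the 4 arrays, and 2 lower without either mTEC array or without the second dendritic cell array, and 1 was higher after quantile normalisation and with the replicate block. Erythroid genes gave 3 of 14 higher and 0 lower (median 0.46), endothelial genes 1 of 14 higher and 0 lower (median 0.07), and NK and cytotoxic genes 1 of 10 higher and 2 lower (median -0.11). The erythroid share of higher genes was near the 18% of all genes, and the endothelial and NK shares were below it. The endothelial call, Tek, was lost without the first dendritic cell array (adjusted p = 0.0775, median -0.05) and with the filter at 50, and 1 or 2 endothelial genes were lower in 9 of the 15 other settings, among them both fits with the replicate block and the fit without the first mTEC array. The higher NK gene was Eomes, a transcription factor of NK and cytotoxic T cells, whose call was lost without the second mTEC array (adjusted p = 0.0799), without the first dendritic cell array (adjusted p = 0.104) and with the filter at 50. The NK median was 0.10 without the first mTEC array, and the NK count of lower genes fell to 1 with a constant of 1 and when any 1 array other than the second of mTEC was left out, each time through Klrk1 (adjusted p from 0.0506 to 0.157). Phagocyte oxidase and granule genes gave 7 of 19 higher and 1 lower (median 0.41), with 2 lower in both fits with the replicate block and with the filter at 50 and 0 lower without the first mTEC array. The oxidase genes Cybb, Cyba, Ncf1 and Ncf4 were not called. Among the higher genes, Mpo, Ltf, Camp, S100a8 and S100a9 were already counted in the neutrophil list.

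How far these differences recur between another epithelial and another myeloid population was read from cTEC and macrophages. Their arrays do not enter the means of mTEC and dendritic cells. The fit pools the spread of each probe set over all 16 arrays, so the calls of both comparisons are not independent. A probe set with a small spread is more easily called in both, so the shares of all genes are not an exact background. Of the 1247 genes higher in mTEC than in dendritic cells, 302 were higher in cTEC than in macrophages (24.22%), beside a background of 6.39%. These 302 genes were 68.33% of the 442 higher in cTEC. Of the 581 genes lower in mTEC, 147 were lower in cTEC (25.3%, beside 5.5%), which is 38.58% of 381. Calls in opposite directions were made for 45 and 5 genes. Across the 6922 genes both differences correlated at a Pearson r of 0.43, a description of genes that are not independent replicates. Krt8 and Dsp were high in both epithelia, at 1846.4 and 2938.3 and at 1588.1 and 1642.8 in cTEC, whereas Aire (37.8 and 113.2), Reg3g (25.3 and 73) and Csn2 (34.9 and 118.7) were low in cTEC. The macrophage arrays carried epithelial signal: Krt17 read 346.9 and 24.5, Ccl25 1833.6 and 263.1, and the summed signal of the 21 thymic epithelial genes 3544.1 and 749.1, against 1087.6 and 697.4 in dendritic cells. Its part in the comparison with cTEC was not tested. Without the first macrophage array, 1075 probe sets differed between cTEC and macrophages in place of 1008 (10.8%), and without the second, or without the first cTEC array, 580 and 576.

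A set of genes was higher both in mTEC than in cTEC and in dendritic cells than in macrophages. limma called 1434 probe sets (15.4%) in the first comparison, between 860 and 946 when any 1 of its 4 arrays was left out, and 862 (9.25%) in the second, 566 without the first dendritic cell array. Counted by gene, higher in mTEC than in cTEC were 819 genes (11.8%), higher in dendritic cells than in macrophages 280 (4.05%), and 105 genes were in both lists, which is 12.82% of the first, beside 4.05% of all genes, and 37.5% of the second, beside 11.8%. The means of these 2 comparisons share no arrays, but the calls of both use the same pooled spread of each probe set. The pattern was looked for after the data were seen. Lower in both comparisons were 74 genes, 23.27% of the 318 lower in mTEC than in cTEC, beside 6.36% of all genes, and 16.82% of the 440 lower in dendritic cells than in macrophages, beside 4.59%. In the crossed directions, 49 genes were higher in mTEC than in cTEC and lower in dendritic cells than in macrophages, 5.98% of 819 (beside 6.36%) and 11.14% of 440 (beside 11.8%), and 8 genes were lower in the first and higher in the second, 2.52% of 318 (beside 4.05%) and 2.86% of 280 (beside 4.59%). Leaving out 1 of the 8 arrays left between 71 and 102 of the 105 as a count, and 34 genes were called in all 17 fits. Between mTEC and dendritic cells themselves, 20 of the 105 genes were higher in mTEC, 28 lower and 57 not called. The thymocyte sums given above were larger on the cTEC and macrophage arrays, and their part in the pattern was not tested.

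The genes of this set named here and not above were chosen after their values were seen. Tm4sf5, a tetraspanin-like membrane protein, read 239.8 and 210.3 in mTEC and 294.7 and 351.2 in dendritic cells, against 0.9 and 2.8 in cTEC and 3.6 and 2.9 in macrophages. Tnf, the cytokine, read 324.1 and 230.5, and 239.7 and 272.4, against 2.9 and 6.5, and 11 and 26.2. For both genes the 4 arrays of the first pair of populations lay above the other 4 and close together, with mTEC minus dendritic cells at -0.51 (interval -1.21 to 0.19) and 0.10 (-0.78 to 0.97). Irf4, a transcription factor of dendritic and B cells, read 964.6 and 960.5, and 622.3 and 390.9, against 64.6 and 82.8, and 53.4 and 19.5, a difference of 3.63 ± 0.41 from cTEC and of 3.73 ± 0.41 from macrophages. Ccl22 was higher by 3.41 in mTEC than in cTEC and by 4.65 in dendritic cells than in macrophages, and Ccl17 by 3.16 and 6.84. Fscn1, the actin-bundling protein of mature dendritic cells, read 894.4 and 1253.5, and 1383.4 and 1669.6, against 167.1 and 258.6, and 189.2 and 111.6. Spib, an Ets factor related to PU.1, read 671.3 and 1115.3, and 205.7 and 127.9, against 14.5 and 50, and 28.5 and 8.3, and it was higher in mTEC than in dendritic cells (2.38 ± 0.54, adjusted p = 0.00432). Batf3, Ccr7 and Cd40 were also in the set, each in 15 of the 17 fits, and Tm4sf5, Tnf, Irf4, Ccl17, Fscn1 and Spib were in all 17.

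**Figure D5:**
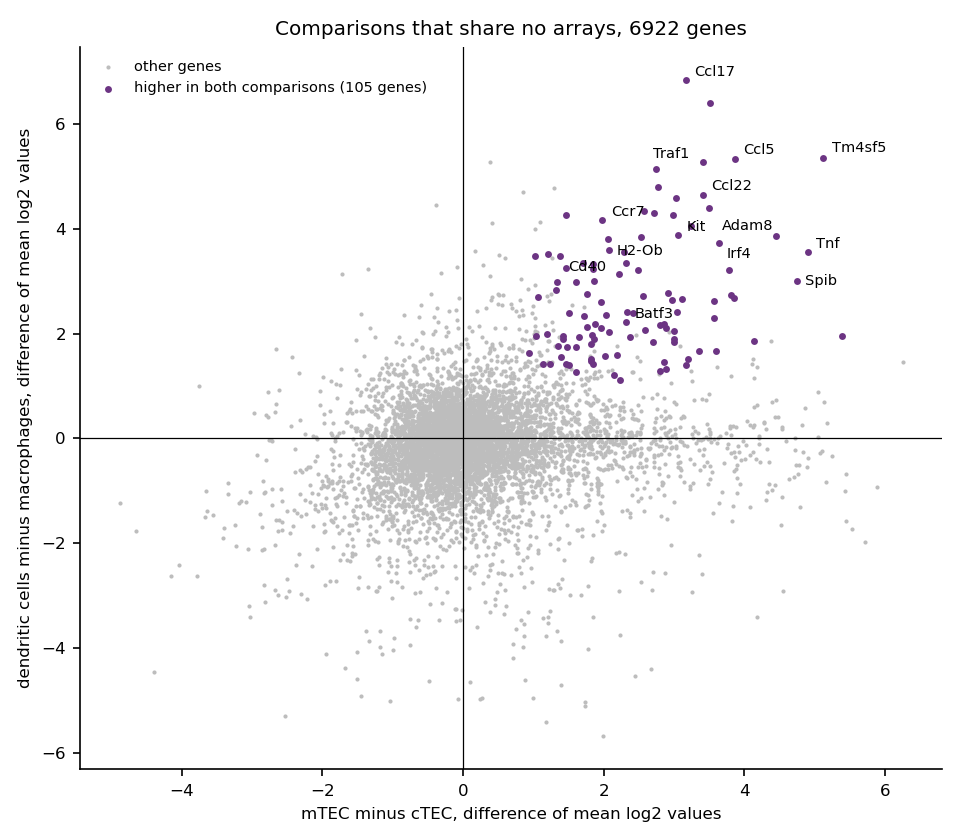
Difference of mTEC minus cTEC (x axis) and of dendritic cells minus macrophages (y axis) for 6922 genes, both as differences of mean log2(signal + 4.8), from means that share no arrays. The 105 genes called higher in both are purple and lie in the upper right, among them Tm4sf5 at 5.12 and 5.34 and Ccl17 at 3.16 and 6.84.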

How the data were processed

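The deposited table held 1 linear signal intensity per probe set and array, for 12488 probe sets on 16 arrays. The software and normalisation behind them were not given in the sources used here. Every array had a 2%-trimmed mean of 99.98, and the deposited intensity values were used as given. The 66 control probe sets were left out, 4.8 (the 20th percentile) was added before log2, and 3103 probe sets not above 17.3 (the 40th percentile) on 2 arrays were removed. In the annotation, 10833 probe sets had 1 gene symbol, 396 several and 1193 none.

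All 16 arrays in 8 groups were fitted in limma 3.58.1 (R 4.3.3) with lmFit and eBayes with a trend. Each 2-sided p was adjusted over 9319 probe sets by the Benjamini-Hochberg method. On simulated data this called 8, 62, 88 and 100% of probe sets changed by 1, 2, 3 and 4 on the log2 scale, with 8 false of 137 calls. The simulation changed 50 probe sets at each size and left the others equal, with independent noise. In the data 24.3% of probe sets were called, so this recovery need not hold for the comparison. Deviations of same-numbered samples correlated at 0.28 to 0.53 in all 6 pairs of unfractionated groups (0.47 for mTEC and dendritic cells). The main fit held no term for the sample number. Only the fits with a replicate block took the numbers as pairing. The number of arrays limits the precision.

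The comparison, the gene lists and the named-gene rule were chosen with earlier results of these data known. The rule named the 15 highest and 15 lowest genes, up to 3 higher and 3 lower members of each list by p, and a fixed list of markers. It gave 168 genes, 159 of them called. No set test was run.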

Additional observations from a re-analysis of the deposited data

How the results depend on the processing

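The count of 2268 called probe sets stayed between 1906 and 2728 under quantile normalisation, other constants, other filters, no trend, fits of 4 or 8 arrays and the replicate block (2728 over all arrays, 2714 within the unfractionated groups), and between 1554 and 1893 without an mTEC or dendritic cell array. Of the 159 named genes called, 135 were called in all 15 fits, 24 were lost at least once, and 0 changed sign. Outside the fits that left out an array, 7 were lost: Psme1, Psmb8, Marco, Ackr4, Klrk1, Id2 and Anpep. The replicate block changed the call of Ctss (-0.93, adjusted p = 0.0337 and 0.0499) and of no other named gene. List counts that moved by over 1.5 times with the replicate block or with 1 array left out are given beside the lists.

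Changes of sign were limited to genes that were not called. Cd80 was at -0.40 after quantile normalisation. With 1 array left out, Cd80 ranged from -0.15 to 0.21 (below 0 without either first array), Cd74 from -0.68 to 0.54 (above 0 without the first mTEC or the second dendritic cell array), H2-Eb1 from -0.50 to 1.25 (below 0 without the second mTEC or the first dendritic cell array) and H2-Aa from -0.57 to 3.85 (below 0 without the first dendritic cell array). The cause was not tested. Leaving out 1 array moved the count for mTEC against cTEC from 1434 to between 860 and 946, for dendritic cells against macrophages from 862 to between 566 (without the first dendritic cell array) and 786, and for cTEC against macrophages from 1008 to between 576 and 1075 (576 without the first cTEC array, 580 without the second macrophage array). Fewer samples enter these fits.

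With 2 arrays a group, differences of about 2-fold were seldom called on simulated data, and signals near the added constant give folds that depend on it. Saturation was not assessed. The highest signals were 2775.1 and 5630 on the mTEC arrays and 3523.8 and 4788 on the dendritic cell arrays.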
